A study of Mus musculus with 9 samples.

Results

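The RNA content of ICOS+ CD4 T cells was described in the tumours of control mice alone, with no comparison against treated mice. The 3 Control libraries of a series of 9 were used, each from the cells of 1 mouse. Genes were retained where every one of these libraries held at least 5 CPM (a gene's count over the sum of counts in all genes of that library, times 1e+06). This left 3608 genes of 45808 in the table, which is 7.88% of all genes and 29.7% of the 12139 genes with any count in a control. The mice were of the strain C57BL/6J and carried MC38, a mouse colon adenocarcinoma line, and the cells were taken on day 12 after tumour injection. The labels give this group only as Control, so it is not known here whether these mice were left untreated or received a control antibody. The other 6 libraries came from mice given anti-CTLA-4 or anti-PD-1 and were not analysed here.

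ICOS is a costimulatory receptor of the CD28 family that T cells put on their surface after they have met antigen. Among CD4 T cells it is carried by activated helper cells and by many regulatory T cells, which restrain immune responses and depend on the transcription factor Foxp3. Regulatory T cells take up interleukin 2 through a receptor whose alpha chain, Il2ra, gives it high affinity, and they carry inhibitory receptors such as Ctla4 and Tigit. Both kinds of cell enter tumours, and a sort on CD4 and ICOS collects them together. In such bulk libraries, fewer cells of a type and less RNA per cell cannot be told apart.

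The libraries held 41508589, 31088795 and 35779424 counts in genes for Control replicates 1, 2 and 3, an order kept for every set of 3 values. At these depths a count of 3, taken as the limit of detection for counting error, corresponds to 0.0723, 0.0965 and 0.0838 CPM. Each mouse had between 6051 and 6309 genes at 5 CPM or more. Mitochondrial protein genes took 8.51%, 5.14% and 5.0% of gene counts, and ribosomal protein genes took 3.62%, 2.08% and 2.53%. The highest value of both stood in Control replicate 1.

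The labelled cell type was checked against 5 defining genes, all of which passed the 5 CPM minimum in every mouse. Cd4, the coreceptor used in the sort, stood at 324, 599 and 594 CPM. Icos, the other sorting marker, stood at 1851, 2042 and 2866 CPM. As sorting markers they say only that the labels and the libraries go together. Foxp3 stood at 2362, 2727 and 3231 CPM, with a mean of 2773 ± 436 CPM (SD, n = 3). Il2ra stood at 5987, 8761 and 9748 CPM (mean 8166 ± 1950 CPM, SD, n = 3). Tigit stood at 4530, 5337 and 6352 CPM (mean 5406 ± 913 CPM, SD, n = 3). The last 3 were each lowest in Control replicate 1 and highest in Control replicate 3, and for each the highest mouse held less than 2 times the lowest. Cd8a and Cd8b1, which encode the coreceptor of CD8 T cells, had no count in any of the 3 libraries. In the annotation of GRCm38, Foxp3 (ENSMUSG00000039521) lies on chromosome X, bases 7573644 to 7595245, and Il2ra (ENSMUSG00000026770) on chromosome 2, bases 11642807 to 11693193. Tigit (ENSMUSG00000071552) lies on chromosome 16, bases 43648867 to 43664146, Icos (ENSMUSG00000026009) on chromosome 1, bases 60977927 to 61000320 and Cd4 (ENSMUSG00000023274) on chromosome 6, bases 124864692 to 124888221.

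The regions just upstream of a few of these genes are shown because the genes carry the profile: Foxp3, Il2ra and Tigit mark the cells and were abundant, Polr2a was among the 20 most abundant genes, and Msi2 was the most even gene between mice among those with a mean of at least 100 CPM. Each sequence is the 250 bases before the annotated start in RefSeq (build GRCm38.p6), written 5′ to 3′ on the gene's strand, with motif matches in capitals. For Foxp3 the RefSeq start lies inside the gene span given above, so its window also lies inside that span. The search covered both strands for the TATA box (TATAAA), the CCAAT box (CCAAT), the GC box (GGGCGG), the AP-1 site (TGANTCA), the ETS site (CCGGAA), the RUNX site (TGTGGT), the STAT site (TTCNNNGAA) and the forkhead site (GTAAACA), spelled out in parentheses.
Foxp3, chrX:7579426-7579675, plus strand: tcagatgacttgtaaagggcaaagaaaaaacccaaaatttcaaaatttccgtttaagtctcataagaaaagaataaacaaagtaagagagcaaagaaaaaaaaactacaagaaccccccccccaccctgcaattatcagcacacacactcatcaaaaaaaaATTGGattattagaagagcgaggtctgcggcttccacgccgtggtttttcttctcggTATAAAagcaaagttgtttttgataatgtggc
Il2ra, chr2:11642542-11642791, plus strand: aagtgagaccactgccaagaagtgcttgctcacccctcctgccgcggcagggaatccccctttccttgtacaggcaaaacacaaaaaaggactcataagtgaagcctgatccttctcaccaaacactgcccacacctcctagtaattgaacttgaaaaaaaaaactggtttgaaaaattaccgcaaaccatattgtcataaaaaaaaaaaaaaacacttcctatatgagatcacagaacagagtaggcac
Tigit, chr16:43664185-43664434, minus strand: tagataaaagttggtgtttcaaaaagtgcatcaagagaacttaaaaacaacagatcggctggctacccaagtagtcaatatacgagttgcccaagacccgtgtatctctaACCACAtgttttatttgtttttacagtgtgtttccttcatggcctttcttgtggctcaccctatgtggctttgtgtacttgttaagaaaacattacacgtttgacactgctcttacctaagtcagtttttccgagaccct
Polr2a, chr11:69758634-69758883, minus strand: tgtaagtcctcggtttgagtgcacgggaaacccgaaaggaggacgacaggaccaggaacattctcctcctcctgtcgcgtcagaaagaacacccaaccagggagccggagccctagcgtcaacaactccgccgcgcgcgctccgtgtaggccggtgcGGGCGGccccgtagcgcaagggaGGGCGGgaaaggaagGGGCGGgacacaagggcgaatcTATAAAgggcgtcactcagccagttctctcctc
Msi2, chr11:88718278-88718527, minus strand: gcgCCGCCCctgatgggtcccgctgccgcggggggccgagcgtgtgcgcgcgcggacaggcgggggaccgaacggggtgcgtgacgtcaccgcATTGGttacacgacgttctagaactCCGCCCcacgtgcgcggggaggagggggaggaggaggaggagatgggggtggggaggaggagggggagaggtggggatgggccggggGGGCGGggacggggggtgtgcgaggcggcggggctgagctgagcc

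The Foxp3 window held a TATAAA from 32 to 27 bases before the start and an ATTGG, the CCAAT box on the other strand, from 89 to 85 bases before it. The Tigit window held ACCACA, the RUNX letters on the other strand, from 140 to 135 bases before its start. None of the 8 motifs was in the Il2ra window. The Polr2a window held a TATAAA from 33 to 28 bases before the start and 3 GC boxes, and the Msi2 window held 3 GC boxes and an ATTGG. GC content was 37.6% for Foxp3, 42.4% for Il2ra and 40.0% for Tigit, against 62.8% for Polr2a, 75.6% for Msi2 and a median of 52.0% over the 27018 promoters of the table. Among those promoters, TATAAA was in 13.0%, CCAAT in 34.5%, the GC box in 32.9% and the RUNX letters in 14.2%. No entry for Icos or Cd4 was in the table.

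Detection in all 3 mice depended on level. Of the 9075 genes at 5 CPM or more in at least 1 control, 3608 reached it in 3 mice, 2327 in 2 mice and 3140 in 1 mouse. All 263 genes whose highest mouse held 500 to 1000 CPM, and all 126 above that, reached 5 CPM in the other mice too. Between 100 and 200 CPM in the highest mouse the share was 64.9% of 1857 genes, and between 20 and 50 CPM it was 9.42% of 2016 genes. Of the 3394 genes at 100 CPM or more in a mouse, 558, or 16.4%, were below 1 CPM in another mouse. With the line drawn above 50 CPM, 2129 of 5882 genes, or 36.2%, were below 1 CPM in another mouse. The part of RNA amplification from few cells in these differences was not tested.

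**Figure D1:**
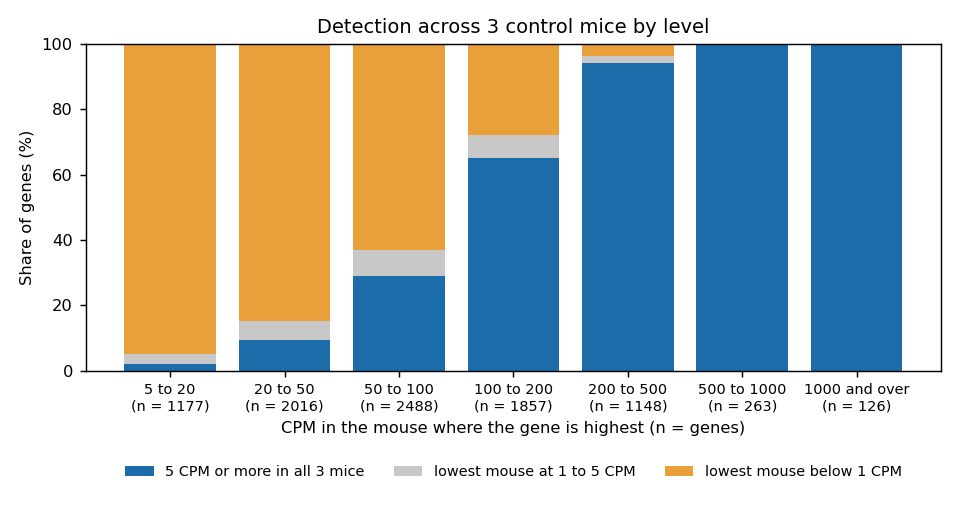
Genes at 5 CPM or more in at least 1 control mouse, grouped along the horizontal axis by CPM in their highest mouse; the vertical axis is the share of genes in percent, and colours give the lowest of the 3 mice. The share at 5 CPM or more in all 3 mice goes from 1.95% in the lowest group to 100% in the groups from 500 CPM upward.

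Members just inside the minimum were Rnf185, at 92.6, 11.2 and 5.003 CPM, and Ints7, at 5.01, 78.7 and 69.7 CPM. Just outside it were Ythdf2, at 4.96, 41.2 and 21.9 CPM, and E2f1, at 136, 4.99 and 73.1 CPM. The deciding mouse was replicate 3 for Rnf185, replicate 1 for Ints7 and Ythdf2 and replicate 2 for E2f1.

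The 3608 genes took 86.8%, 86.9% and 87.8% of all gene counts. Of them, 3473 were protein coding in the annotation, 71 encode ribosomal proteins, 10 are transcribed from the mitochondrial genome and 5 are antigen receptor segments. Their median mean level was 106 CPM. The median coefficient of variation (CV, the SD over the mean) between the 3 mice was 0.509, with quartiles of 0.316 and 0.725, whereas counting alone would give a median of 0.0162. The CV exceeded the counting value in 3605 of the 3608 genes. The highest mouse held a median of 2.83 times the lowest. The ratio was below 2 in 1056 genes (29.3%) and above 10 in 341 genes (9.45%).

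Spread fell as level rose, although the minimum in every mouse removes the most variable genes at low levels. Median CV was 0.647 among the 616 genes with a mean of 5 to 50 CPM, 0.447 among the 1669 genes with 100 to 500 CPM and 0.196 among the 82 genes with 1000 CPM or more. In that highest class 87.8% of genes differed by less than 2 times between mice. Across the 3608 genes, Pearson's r of log2(CPM + 1) was 0.610 between replicates 1 and 2, 0.603 between 1 and 3 and 0.635 between 2 and 3; genes are not independent replicates, and the choice of genes present in every mouse enters these values. The common biological coefficient of variation from edgeR, with an intercept only, was 0.655 for the same genes. It was 0.853 for the 4388 genes kept by edgeR's own expression filter, which sets a lower minimum.

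**Figure D2:**
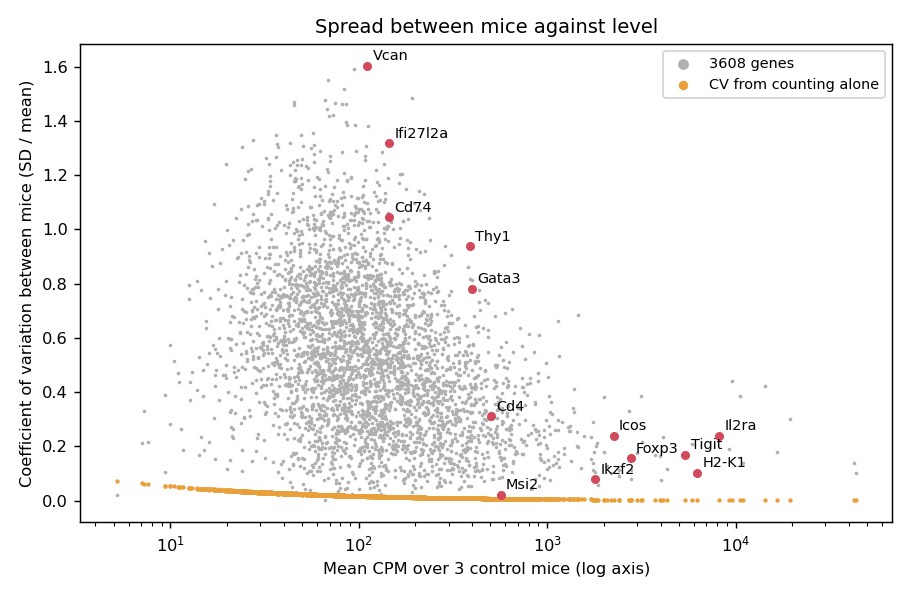
Coefficient of variation between the 3 control mice (vertical axis) against mean CPM (horizontal log axis) for the 3608 genes, with the value that counting alone would give in orange. Foxp3, Il2ra, Tigit and Icos lie at high level and low spread, and Vcan, Ifi27l2a, Cd74 and Thy1 at high spread.

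Msi2, an RNA-binding protein, was the most even gene with a mean of at least 100 CPM, at 558, 579.9 and 560.3 CPM. Other even genes were Trpm7, an ion channel with a kinase domain, at 134, 128 and 133 CPM, and Aldoa, the glycolytic aldolase, at 323, 346 and 350.2 CPM. Nt5e, the ectonucleotidase CD73, was also among the 10 most even, at 115, 120.0 and 109 CPM. The 10 most even genes all had a highest to lowest ratio of at most 1.10.

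Among genes of that level that passed 5 CPM in every mouse, the least even was Ifi27l2a, an interferon-induced gene, at 364, 5.85 and 66.6 CPM. The 57 genes of that level that missed this minimum were not ranked, so the minimum bounds the ratios given here. Vcan, a matrix proteoglycan, stood at 316, 5.56 and 10.8 CPM, and Stab1, a scavenger receptor of macrophages and endothelium, at 39.6, 6.82 and 289.9 CPM. Oas3, an interferon-induced sensor of double-stranded RNA, stood at 6.82, 239 and 123 CPM. These genes did not share 1 high mouse: Ifi27l2a and Vcan were highest in replicate 1, Oas3 in replicate 2 and Stab1 in replicate 3. The 10 least even of the ranked genes had ratios from 33.7 to 62.2.

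Aside from mitochondrial transcripts, ribosomal protein genes, receptor segments and predicted genes, the 20 genes with the highest mean CPM included 5 that encode surface molecules of T cells and other leukocytes: Il2ra, Tigit, Cd28, Cd53 and Ptprc. Cd53 is a tetraspanin of leukocytes and Ptprc encodes CD45. The transcript listed as Yam1 had the highest CPM among these, at 44084, 36134 and 47785 CPM; it has no entry in the annotation used. The nuclear RNA Malat1 stood at 9198, 12088 and 11415 CPM, and Xist, the RNA that silences an X chromosome, at 8486, 15336 and 8015 CPM. H2-K1, a class I MHC heavy chain, stood at 6417, 5560 and 6812 CPM, and Polr2a, the largest subunit of RNA polymerase II, at 3872, 3789 and 4353 CPM. Cytoskeletal genes made up a further group, with Cfl1 (cofilin) at 4793, 4424 and 3806 CPM, Actb at 3025, 4222 and 3904 CPM, Tmsb4x (thymosin beta 4) at 2407, 3453 and 3721 CPM and Tagln2 at 3302, 4602 and 4044 CPM. Class I genes, Actb and Eef1a1 have near-identical copies or pseudogenes, so their levels rest on how reads with several matches were treated.

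Levels of different genes were compared per kb of annotated exons (CPM per kb). Mitochondrial transcripts, ribosomal protein genes, receptor segments and predicted genes were again left out, as was Yam1, which has no length. Of the genes that remained, Tigit came first, at 4930, 5807 and 6912 CPM per kb, although the annotation gives it only 919 exon bases, and a longer true transcript would lower the value. Tmsb4x followed at 2329 ± 506 CPM per kb (SD, n = 3), then H2-K1 at 2132 ± 218 and B2m, the light chain of class I MHC, at 2040 ± 229.8. In the order of these genes, Il2ra was the ninth at 1430 ± 341 CPM per kb, Il2rg the seventeenth at 718 ± 109.8 and Icos the twentieth at 657 ± 157. Of the 19 neighbouring pairs in this order, 17 differed by less than the larger SD of the pair, so the order within it is not resolved by 3 mice. The exceptions were the step from Tigit to Tmsb4x and the step from Actb to Gltp.

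In 18 lists of genes for lineage, receptors, transcription factors, cytokines and metabolism, 245 of 428 distinct genes passed 5 CPM in all 3 mice. The lists hold well-known T cell and housekeeping genes, and no test was made of them against the 7.88% of all genes. The share ranged from 18.6% for cytokines and chemokines to 84.6% for amino acid transport and iron uptake. Of list genes above 50 CPM in a mouse, some were below 1 CPM in another. That share was 0% for the T cell receptor complex, 7.41% for lineage factors, 8.70% for regulatory T cell identity and 15.0% for chemokine receptors. Only granule genes (37.5%), the nuclear respiratory chain (38.2%) and cytokines (45.0%) exceeded the 36.2% over all genes. The part of level in this was not tested.

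**Figure D3:**
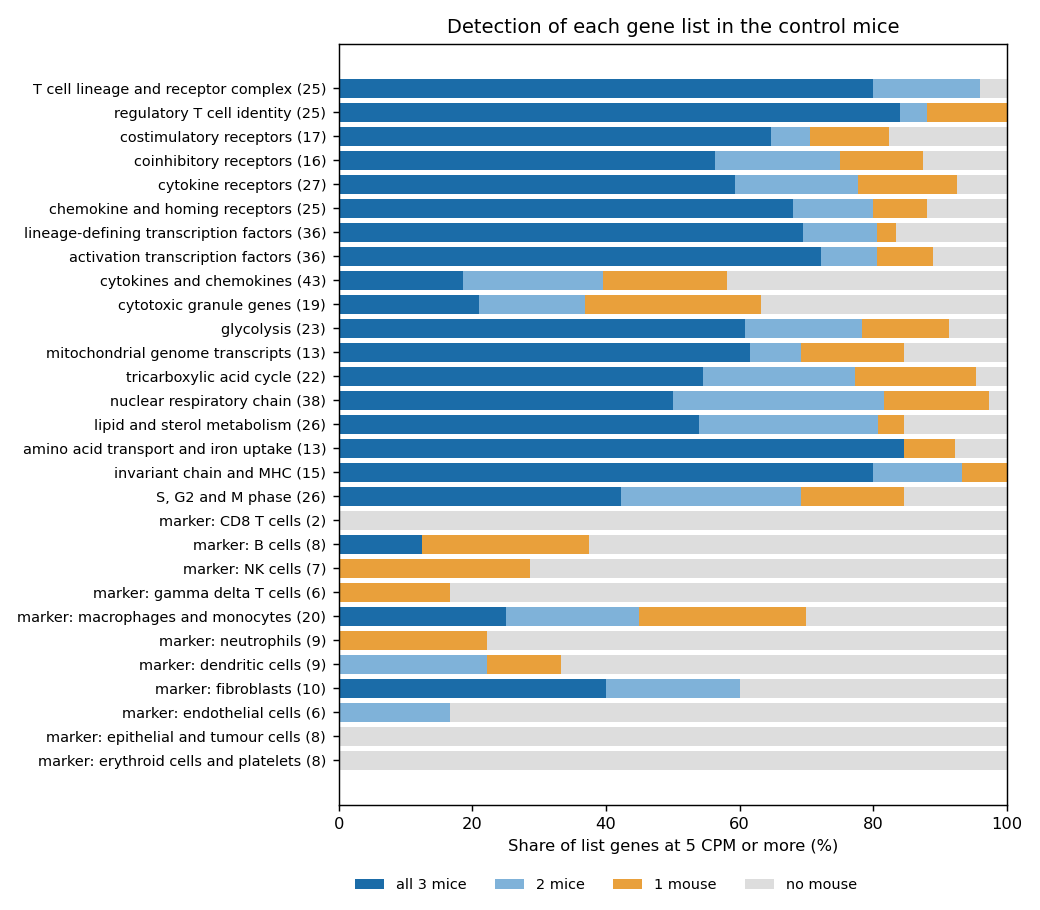
For each gene list, with its number of genes in the table in parentheses, the horizontal axis gives the share of genes at 5 CPM or more in all 3, in 2, in 1 or in none of the control mice. Regulatory T cell identity (84.0% in all 3 mice) and the T cell receptor complex (80.0%) lie high, cytokines and chemokines (18.6%) and cytotoxic granule genes (21.1%) low, and marker lists of other cell types at 0 to 40.0%.

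Genes of the T cell lineage and receptor complex passed in 20 of 25 cases, with a median mean level of 380.5 CPM and a median CV of 0.351. Cd28, the costimulatory receptor that supplies a second signal beside the antigen receptor, stood at 3539, 3032 and 2476 CPM. Cd3e, a signalling chain of the receptor complex, stood at 422, 347 and 838 CPM, and Trac, the constant region of the receptor alpha chain, at 612, 264 and 388 CPM. Cd3e was highest in replicate 3 and Trac in replicate 1. The adhesion receptor Cd2 stood at 724, 544 and 761 CPM and the phosphatase Ptpn22 at 377, 628 and 576 CPM, each within 2 times between mice.

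Thy1 was less even, at 108, 799 and 257 CPM, with replicate 2 above both others. Lck, the kinase that phosphorylates the CD3 chains, stood at 3.71, 374 and 444.1 CPM and so missed the minimum in replicate 1 alone; Lat, the adaptor downstream of it, stood at 21.5, 2.99 and 162 CPM. Thy1, Lck and Lat were picked out after their values were seen. On the scale per kb of exons, Trbc1 (498 ± 105), Cd28 (493 ± 86.9) and Trac (450.5 ± 189, CPM per kb, SD, n = 3) led the list and did not differ beyond their spread. Cd4 was the eighth of 20, at 125 ± 39.1 CPM per kb.

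Of 25 regulatory T cell genes, 21 passed in all 3 mice, and 10 of the 21 differed by less than 2 times between mice. After Il2ra and Foxp3, the most abundant in CPM were Ikzf2, which encodes the transcription factor Helios, at 1779, 1948 and 1664 CPM, and Ctla4, at 755, 1124 and 1086 CPM. Klrg1, a lectin-like inhibitory receptor, stood at 629, 804 and 1097 CPM. Ikzf2 was among the steadiest abundant genes, with replicate 2 highest and replicate 3 lowest. Il1rl1, the interleukin 33 receptor, was as even, at 283, 263 and 253 CPM.

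Ikzf4, which encodes Eos, was uneven, at 140.2, 568 and 452 CPM, with replicate 1 lowest. Izumo1r, the folate receptor family member FR4, stood at 165, 462 and 184 CPM. Of the 4 that did not pass, Plagl1 stood at 136, 0 and 0.0559 CPM and Ebi3, a subunit of interleukin 35, at 0.0723, 18.8 and 108 CPM. Il10, the anti-inflammatory cytokine, stood at 0.0241, 0.0643 and 13.8 CPM and Gpr83 at 0, 0.0322 and 8.19 CPM, both reaching 5 CPM in replicate 3 only. Il10 and Gpr83 were picked out after their values were seen. Scaled per kb of exons, Il2ra (1430 ± 341 CPM per kb) stood above Foxp3 (606 ± 95.3) and Klrg1 (596 ± 167), and the last 2 did not differ beyond their SDs.

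Costimulatory receptors passed in 11 of 17 cases, with a median CV of 0.341. Beside Cd28 and Icos, the tumour necrosis factor receptor family gave Tnfrsf9 (4-1BB) at 440.4, 907 and 791 CPM and Tnfrsf4 (OX40) at 223, 623 and 861 CPM. Replicate 1 was the lowest for both. The adhesion and activation marker Cd44 stood at 362, 441 and 462 CPM, with a narrow range, and Cd69, an early activation marker that retains cells in tissue, at 184, 561 and 270.4 CPM. Tnfrsf8 (CD30) reached 0.0241, 2.86 and 54.2 CPM, so only replicate 3 was above 5 CPM. Cd40lg, the helper cell ligand for CD40, had 0.0241, 1.22 and 0.0279 CPM and was picked out after its values were seen. Tnfrsf14 had 0.0241, 0.0643 and 0.0279 CPM, at or under the detection limit in every mouse.

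The order of costimulatory receptors per kb of exons began with Icos (657 ± 157), Cd28 (493 ± 86.9), Tnfrsf4 (417 ± 236) and Tnfrsf9 (262 ± 89.2, CPM per kb, SD, n = 3). Icos and Cd28 were further apart than the larger of their SDs, but Cd28 and Tnfrsf4 were not.

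Coinhibitory receptors passed in 9 of 16 cases. Tigit and Ctla4 led in CPM, followed by Klrg1, by Cd274, the PD-1 ligand, at 527, 679.8 and 606 CPM and by Lag3, a receptor for class II MHC, at 172, 527 and 751 CPM. Cd274 varied little, whereas Lag3 in replicate 1 lay well under the other mice. Havcr2 (TIM-3) stood at 144, 76.0 and 228 CPM, with a mean of 149.6 ± 76.2 CPM. Pdcd1, which encodes PD-1, did not pass: its values were 89.5, 46.5 and 0.140 CPM, and replicate 3 was far below the other mice. Btla, another receptor of the immunoglobulin superfamily, stood at 12.7, 52.0 and 0 CPM. Cd160 and Pdcd1lg2 had no count in any mouse, which allows at most 0.0723, 0.0965 and 0.0838 CPM. Per kb of exons, Tigit (5883 ± 993) stood above Klrg1 (596 ± 167), Ctla4 (424 ± 87.0) and Lag3 (229 ± 138 CPM per kb), each step except those after Lag3, Cd5 and Havcr2 being larger than the larger SD of the pair.

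**Figure D4:**
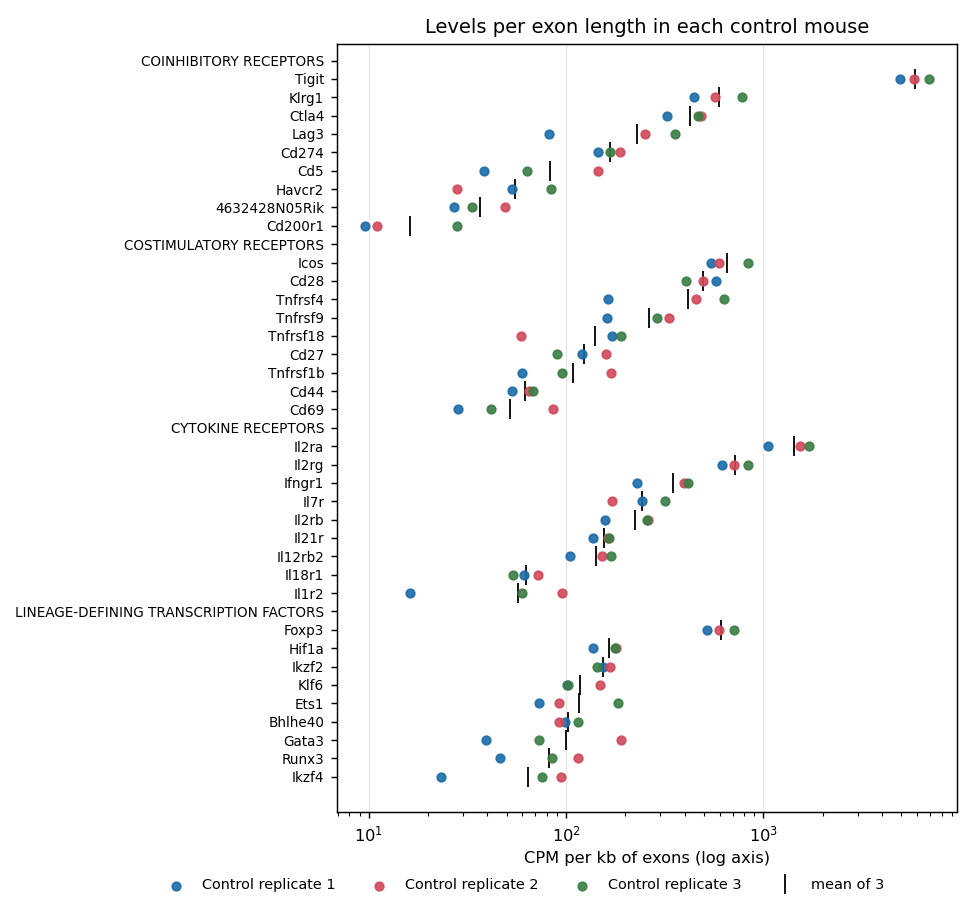
Level per kb of exons (horizontal log axis, CPM per kb) in each of the 3 control mice for the most abundant coinhibitory, costimulatory and cytokine receptors and lineage transcription factors, with a bar at the mean. Tigit, Il2ra, Icos and Foxp3 lead their lists, and most neighbouring genes overlap.

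Cytokine receptors passed in 16 of 27 cases, with a median mean of 284 CPM and a median CV of 0.297. The chains of the interleukin 2 receptor were all abundant: Il2rg, the common gamma chain, stood at 1464, 1692 and 1986 CPM and Il2rb, the beta chain, at 674, 1110 and 1099 CPM. Il7r, the receptor for the survival factor interleukin 7, stood at 1136, 799.7 and 1472 CPM. Per kb of exons Il2ra (1430 ± 341) exceeded Il2rg (718 ± 109.8), which exceeded Il2rb (224 ± 58.0 CPM per kb, SD, n = 3) beyond the SDs. Il2rg shares 30.5% of its exon bases with another gene on the same strand, so its level is uncertain.

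Ifngr1, the ligand-binding chain of the interferon gamma receptor, stood at 650.3, 1126 and 1186 CPM, while its partner Ifngr2 had no count in any mouse. Il12rb2, an interleukin 12 receptor chain typical of type 1 helper cells, stood at 397, 577 and 642 CPM and shares 40.0% of its exon bases with a gene on the opposite strand, while its partner Il12rb1 stood at 0.0241, 63.6 and 0 CPM. Il21r, for interleukin 21, was even at 454, 545 and 550.2 CPM, as was Il18r1, for interleukin 18, at 296, 347 and 259.9 CPM, but Il18rap, the accessory chain of the latter, stood at 0.602, 75.1 and 0 CPM. In replicate 2 both chains of the interleukin 12 and interleukin 18 receptors exceeded 50 CPM, whereas in the other mice the partner chain was below 1 CPM. Il12rb1 was picked out after its values were seen. Il6ra reached 66.3, 0.0965 and 0.112 CPM, with replicate 1 alone above the detection limit by a wide margin.

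Chemokine and homing receptors passed in 17 of 25 cases. Ccr2, a receptor for inflammatory monocyte chemokines, stood at 1230, 611 and 1308 CPM, lowest in replicate 2. Ccr8, a receptor carried by regulatory T cells in tumours, stood at 163, 302 and 207 CPM, and Ccr4, found on the same cells and on type 2 helper cells, at 229.8, 347 and 232 CPM. Ccr8 was picked out after its values were seen. The integrin chains Itgal (537, 561 and 633 CPM) and Itgae (304, 224 and 266 CPM) varied little between mice.

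The minimum was missed in at least 1 mouse by Ccr6, at 113, 0.0322 and 0 CPM, Gpr183, at 157, 75.1 and 0.168 CPM, and S1pr4, at 0.145, 40.5 and 106 CPM, each of which exceeded 50 CPM in at least 1 mouse and lay below 1 CPM in another. Ccr9 and Ccr10, homing receptors for gut and skin, had no count in any mouse. When scaled per kb of exons, Ccr8 (191 ± 60.2) and Ccr2 (155 ± 56.5 CPM per kb, SD, n = 3) led the list and did not differ beyond their spread.

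Lineage-defining transcription factors passed in 25 of 36 cases, with a median CV of 0.449. After Foxp3 and Ikzf2, the most abundant in CPM were Ets1, at 621, 782 and 1554 CPM, and Hif1a, the oxygen-sensitive factor, at 809, 1054 and 1041 CPM. Runx1 stood at 466, 716 and 542 CPM, Maf at 362, 548 and 547 CPM and Bhlhe40 at 465, 431.2 and 539.6 CPM. These last 3 differed by less than 2 times between mice. On the per kb scale Foxp3 (606 ± 95.3) lay above Hif1a (164 ± 23.4) and Ikzf2 (155 ± 12.3 CPM per kb, SD, n = 3) beyond the SDs. Foxp3 shares 18.6% of its exon bases with other genes on the same strand and 18.7% on the opposite strand, so its level is less certain.

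The master factors of other helper lineages were less uniform. Gata3, of type 2 helper cells and a subset of regulatory T cells, stood at 157, 752 and 289.5 CPM, with replicate 2 above the others. Tbx21 (T-bet), of type 1 helper cells, stood at 26.2, 0.0322 and 122 CPM, below the detection limit in replicate 2. Bcl6, of follicular helper cells, stood at 17.2, 0 and 25.9 CPM; it was picked out after its values were seen. Bach2, Id3 and Ahr were under 1 CPM in every mouse, and Eomes had no count in any.

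Lef1, a partner of the T cell factor Tcf7, stood at 0.145, 87.1 and 143 CPM, near the detection limit in replicate 1. Tox, a factor of chronically stimulated T cells, was picked out after its values were seen: it stood at 11.1, 247 and 27.2 CPM, with replicate 2 above the others.

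**Figure D5:**
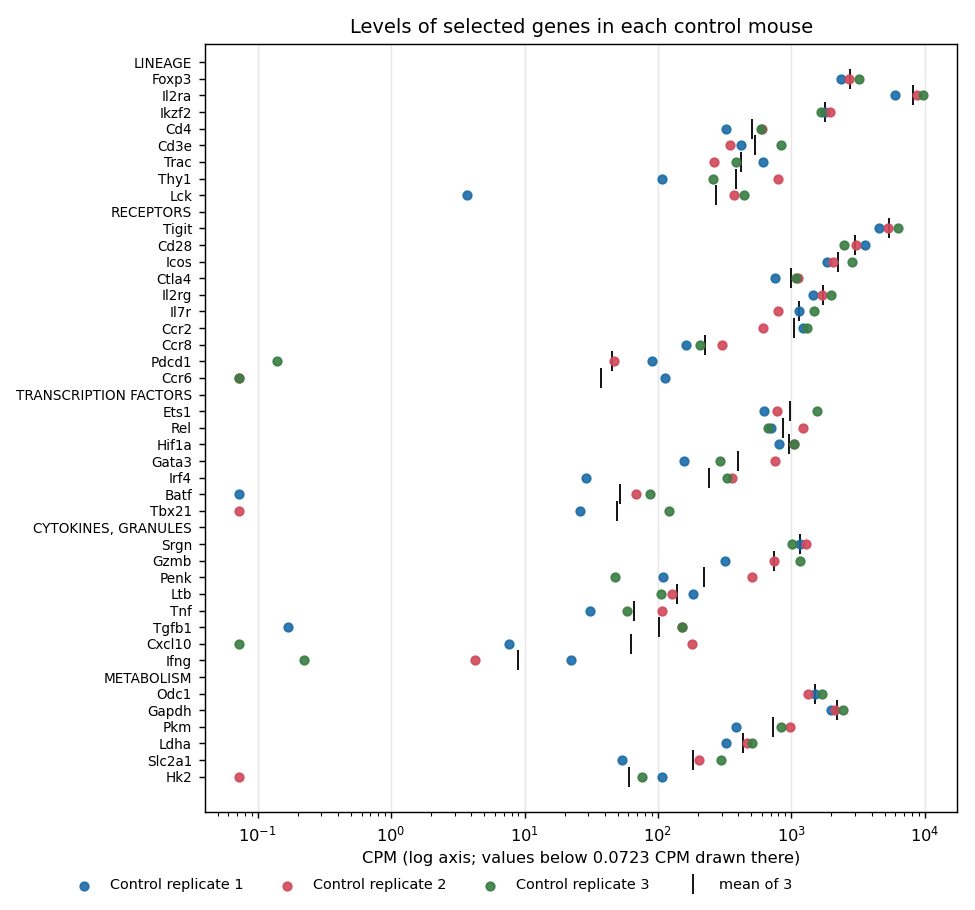
CPM in each of the 3 control mice (horizontal log axis; values below 0.0723 CPM are drawn at that value) for selected lineage, receptor, transcription factor, cytokine and metabolic genes, with a bar at the mean. Foxp3, Il2ra, Tigit, Srgn, Odc1 and Gapdh are tightly grouped, while Batf, Tbx21, Tgfb1, Cxcl10 and Hk2 have at least 1 mouse near the limit of detection.

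Activation-induced and signalling transcription factors passed in 26 of 36 cases, with a median mean of 165 CPM and a median CV of 0.497. Rel, the NF-kappaB subunit c-Rel, stood at 708, 1224 and 667 CPM, and Nfkb1 at 310.4, 762 and 532 CPM. Fosl2, of the AP-1 family, stood at 681, 945 and 639.8 CPM. Among the NR4A receptors, which are induced by antigen receptor signals, Nr4a1 stood at 182, 685 and 586 CPM and Nr4a3 at 392, 794 and 387 CPM. Replicate 2 was highest for these 5 genes. The high mouse was not common to the list: Nr4a2, named here after its values were seen, stood at 312, 80.4 and 21.8 CPM, and Nfkbia, an inhibitor of NF-kappaB, at 388, 234 and 522 CPM, lowest in replicate 2.

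Stat3 stood at 312, 571 and 121 CPM, with replicate 3 lowest. Batf, an AP-1 partner of Irf4, was counted at 0.0482, 68.6 and 87.0 CPM, so that replicate 1 lacked a level present in the other mice. Irf4, which lies outside the 8 most abundant of the list, stood at 29.0, 360.4 and 332 CPM with the same mouse lowest. Irf8 reached 110.4, 0.0965 and 162 CPM and Relb 0.0241, 134 and 34.1 CPM, each near the detection limit in 1 mouse.

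Cytokines and chemokines passed in 8 of 43 cases. Penk, which is counted in this list, encodes proenkephalin, a peptide precursor rather than a cytokine or chemokine. It had the highest mean, at 109, 507 and 47.5 CPM, with replicate 2 above the others. Ltb (lymphotoxin beta) stood at 182, 128 and 106 CPM and Tnfsf10 (TRAIL) at 102, 203 and 104 CPM. The chemokines Ccl4 and Ccl5 stood at 111, 60.5 and 189.6 CPM and 98.7, 49.9 and 161 CPM, with replicate 3 highest for both. Tnfsf11 (RANKL) stood at 72.5, 116 and 76.0 CPM, Areg (amphiregulin, a tissue repair factor) at 27.9, 83.7 and 139 CPM and Tnf at 31.1, 107 and 58.7 CPM.

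Of the 20 cytokine and chemokine genes that exceeded 50 CPM in a mouse, 9, or 45.0%, lay below 1 CPM in another, beside 36.2% over all genes. Tgfb1 stood at 0.169, 151 and 152 CPM, Ccl3 at 21.5, 0.193 and 172 CPM and Cxcl10, induced by interferon, at 7.66, 179 and 0.0559 CPM. The mouse with the lowest value differed: replicate 1 for Tgfb1, replicate 2 for Ccl3 and replicate 3 for Cxcl10. Il17a, Il17f and Il3 were among 15 of the 43 genes with no count in any mouse. Ifng, of type 1 helper cells, stood at 22.2, 4.25 and 0.224 CPM and Il4, of type 2 helper cells, at 0.0241, 3.92 and 34.5 CPM. Neither passed in all mice, and both were picked out after their values were seen. Ifng shares 25.9% of its exon bases with another gene on the same strand, so its level is uncertain.

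Granule genes of cytotoxic cells passed in 4 of 19 cases. Srgn (serglycin, the granule proteoglycan) was even at 1172, 1296 and 1010 CPM, and Gzmb (granzyme B), which activated regulatory T cells can also make, stood at 318, 736 and 1164 CPM, lowest in replicate 1 and highest in replicate 3. Serpinb9, which inhibits granzyme B, stood at 19.3, 146 and 55.8 CPM. Nkg7, of granule exocytosis, stood at 0.0482, 63.5 and 19.96 CPM, and Lamp1, a lysosomal membrane protein, at 143, 0.129 and 49.4 CPM. Prf1 (perforin), picked out after its values were seen, stood at 28.5, 0.0322 and 0.224 CPM, so only replicate 1 was above 5 CPM.

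Glycolytic genes passed in 14 of 23 cases, with a median mean of 222 CPM and a median CV of 0.371. Gapdh stood at 1992, 2137 and 2436 CPM, a gene with many pseudogenes. Pkm (pyruvate kinase) stood at 386, 970.4 and 838 CPM and Ldha (lactate dehydrogenase A) at 323, 462 and 512 CPM. For both, as for Eno1 and Gpi1, replicate 1 was lowest. The hexokinase Hk2 stood at 107, 0.0322 and 75.5 CPM and missed the minimum in replicate 2. Hk1, the other hexokinase of the list, passed with 18.3, 152 and 209 CPM; it was named after its values were seen. Pdk1, which restrains the use of pyruvate in mitochondria, stood at 0, 135 and 3.02 CPM. Tpi1, another enzyme of the pathway, stood at 11.8, 80.9 and 0.0279 CPM. Per kb of exons Gapdh (529.5 ± 54.7) exceeded Pkm (146 ± 61.3 CPM per kb, SD, n = 3) beyond the SDs.

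Mitochondrial genome transcripts were abundant but unequally detected, with 8 of 13 protein genes passing. The highest were mt-Nd5, at 26077, 17544 and 14813 CPM, and mt-Cytb, at 21213, 9945 and 11724 CPM. Replicate 1 was highest for both. mt-Co1 stood at 10976, 9398 and 7463 CPM, whereas mt-Co2, from the same strand of the same genome, stood at 61.2, 0.0965 and 0 CPM. mt-Nd4l stood at 0.0482, 0.0643 and 0 CPM. Reads with several matches in the genome were left out of the gene counts, at 24.3% to 28.1% of all counts per library, and their part in this difference was not tested.

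Nuclear genes of the respiratory chain passed in 19 of 38 cases. Of the 34 that exceeded 50 CPM in a mouse, 13 lay below 1 CPM in another, a share of 38.2% that is near the 36.2% over all genes. ATP synthase subunits were the most abundant in CPM, with Atp5a1 at 630.3, 320.3 and 451.5 CPM and Atp5h at 731, 347 and 215 CPM. Uqcrb, of complex III, stood at 483, 529 and 239 CPM and Cox4i1, of complex IV, at 302, 441.5 and 134 CPM. Among the uneven ones, Atp5g1 stood at 121, 75.2 and 0.112 CPM and Ndufb9 at 122, 40.1 and 0 CPM, with replicate 3 lowest in both cases. Ndufa9 stood at 0.0241, 0.0322 and 91.7 CPM, with replicate 3 highest.

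Genes of the tricarboxylic acid cycle passed in 12 of 22 cases, with a median CV of 0.559, and none of the 12 differed by less than 2 times between mice. Mdh1, the cytosolic malate dehydrogenase, stood at 208, 194 and 92.8 CPM, and Sdha, of succinate dehydrogenase, at 180.1, 245 and 52.7 CPM. Suclg1 stood at 69.9, 0.0322 and 56.4 CPM and Sucla2 at 93.6, 3.18 and 0.0279 CPM, both subunits of succinyl-CoA ligase that fell below 1 CPM in at least 1 mouse.

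Genes of lipid and sterol metabolism passed in 14 of 26 cases, with a median CV of 0.649. Acsl4, which activates fatty acids, stood at 358, 208 and 236 CPM, highest in replicate 1. Dhcr7, Lss and Fdps, which act in sterol synthesis, had no count in any mouse, and the fatty acid receptor Cd36 had none either. Fdps shares 26.7% of its exon bases with another gene on the same strand, so its level is uncertain. Scap, the escort of the sterol-sensing factors, stood at 23.5, 114 and 0.0279 CPM.

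Amino acid and iron genes passed in 11 of 13 cases, with a median CV of 0.290. Odc1, the first enzyme of polyamine synthesis, stood at 1493, 1341 and 1698 CPM. Slc3a2, the heavy chain shared by several amino acid transporters, stood at 289, 344 and 408 CPM, and the glutamine transporter Slc1a5 at 383, 319 and 318 CPM. These 3 genes differed by less than 1.5 times between mice. Slc7a5, the light chain that pairs with Slc3a2, stood at 0, 63.5 and 3.07 CPM and did not pass.

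Antigen presentation genes passed in 12 of 15 cases. H2-K1 was followed in CPM by B2m, at 1635, 1646 and 1983 CPM, and H2-Q7, at 792, 900.1 and 1424 CPM. Nlrc5, the factor that drives class I genes, stood at 250.4, 457 and 548 CPM. Cd74, the invariant chain of class II MHC, was uneven at 307, 9.33 and 117 CPM, with replicate 2 lowest. H2-Aa and H2-Ab1, class II chains of antigen-presenting cells, stood at 20.2, 0.0643 and 0.0838 CPM and 59.5, 1.61 and 7.27 CPM, highest in replicate 1, and H2-Eb1 at 9.64, 112 and 121 CPM, lowest in that mouse; all 3 were picked out after their values were seen.

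Genes of S, G2 and M phase passed in 11 of 26 cases. Mki67, which encodes the proliferation antigen Ki-67, stood at 613, 515 and 675 CPM, and Top2a, topoisomerase II alpha, at 606, 589 and 315 CPM. Pcna, the DNA polymerase clamp, stood at 168, 156 and 111 CPM. Of the 18 genes of the list that exceeded 50 CPM in a mouse, 6, or 33.3%, lay below 1 CPM in another. That is near the 36.2% over all genes. Cdk1 stood at 0.0482, 0.0322 and 77.6 CPM and Ccna2 (cyclin A2) at 142, 64.8 and 0.0559 CPM. Aurka had no count in any mouse.

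Markers of other cell types were present to different extents. No marker of epithelial and tumour cells or of erythroid cells and platelets passed in any mouse, and Krt8, Hba-a1 and the CD8 genes were at 0. The summed level of 20 macrophage and monocyte markers was 1449, 477 and 1070.3 CPM, and 5 of the 20 passed in all 3 mice. Ctss, a cathepsin that lymphocytes also express, contributed 622, 232 and 579.6 CPM. Lyz2 stood at 277, 18.5 and 66.6 CPM and Csf1r at 116, 0.161 and 56.8 CPM, and C1qa was at or near 0 in every mouse. Replicate 2 was lowest for the sum, as it was for Cd74.

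Of 10 fibroblast markers 4 passed, with sums of 300.2, 726 and 353 CPM. Col3a1 stood at 132, 48.4 and 143 CPM and Col1a1 at 19.6, 184 and 5.81 CPM, which are 2 of the 4 that passed. Another 2 markers reached 5 CPM in 2 mice. Most of the sum in replicate 2 came from markers not reported here by name. Fap and Pdgfrb were at 0, as was Pdgfra in 2 mice. The 8 B cell markers summed to 415, 708 and 557 CPM, nearly all of it from Ighm, at 415, 639 and 557 CPM. In replicate 2 the sum lay above Ighm alone, and 2 other markers of the list reached 5 CPM, each in 1 mouse. Cd79a and Pax5, which define B cells, were at 0.

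NK cell markers summed to 84.4, 0.0643 and 28.8 CPM, with Ncr1 and Klrb1c at 0 and Klra4 at 84.4, 0 and 0 CPM. The sum in replicate 3 came from another marker, not reported here by name. Gamma delta T cell markers summed to 65.4, 0.933 and 0.475 CPM, most of it from Tcrg-C4 in replicate 1. The 9 neutrophil markers summed to 1.59, 102 and 0.0279 CPM. Retnlg (0.0241, 67.9 and 0 CPM) and Mmp9 (0.0241, 34 and 0.0279 CPM) carried most of it in replicate 2, while S100a8 and S100a9 were at 0. The 9 dendritic cell markers summed to 70.7, 7.27 and 75.6 CPM. Cst3 (69.8, 0.0643 and 27.8 CPM), Itgax (0.940, 0.0322 and 32.0 CPM) and Zbtb46 (0, 7.17 and 15.8 CPM) carried it, while Flt3 and Xcr1 were at 0. The 6 endothelial markers summed to 21.7, 28.8 and 0.0279 CPM, all from Pecam1. The part of these cells in the spread of the uneven genes was not tested.

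Protein-coding genes that passed in all 3 mice had a median longest transcript of 4023 bases. The median was 3657 bases for genes at 5 CPM in 2 mice, 3252 bases for genes in 1 mouse and 2319 bases for genes with no count in a control. Median transcript GC content was 47.9%, 48.7%, 50.2% and 48.3% in the same order, so length moved with detection and GC content changed little. These are descriptions across genes. The minimum was set in CPM, which is not scaled by length, and the part of this in the length trend was not tested. A promoter entry was found for 80.0% of the 3473 protein-coding genes that passed. Their median promoter GC content was 61.6%, the GC box was present in 63.4%, TATAAA in 5.65% and the ETS letters in 24.9%. Genes at 5 CPM in 2 mice, 80.1% of which had an entry, gave 60.0%, 61.8%, 6.40% and 25.8%, so the promoters of the 2 classes were alike in these measures. Over all promoters of the table, which also holds genes that are not protein coding, the values were 52.0%, 32.9%, 13.0% and 12.2%. All protein-coding genes together, 75.8% of which had an entry, lay closer to the genes that passed, at 56%, 44.4%, 11.9% and 15.7%. Genes at 5 CPM in 1 mouse, 78.5% of which had an entry, gave 59.2%, 59.4% and 6.64% for the first 3 measures. The printed Foxp3, Il2ra and Tigit windows lay under all of these medians of GC content. For genes detected in 1 mouse, genes with no count and all protein-coding genes together, under 80% had an entry. Differences from these classes were therefore not interpreted.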

How the data were processed

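Cells of individual mice were sorted into lysis buffer and, because RNA was scarce, amplified with a single-cell RNA library kit and read as 76-nt pairs, per the labels' protocols. The authors deposited whole-number read counts for each gene in each library, not normalized. The submitters' processing notes list GRCm38, TopHat2, HTSeq and DESeq2, without tool versions or the annotation. The name given to the counts includes the words first strand, but whether reads were counted by strand was not tested. Rows that name no gene (no feature, 31.8% to 42.0%; not unique, 24.3% to 28.1%; ambiguous, 0.631% to 0.951% of all counts) were left out, so genes held 33.0% to 39.2%.

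CPM was taken over gene rows with no further scaling. No groups were compared, so no p-value was computed. Means and SDs are over 3 mice, which the labels describe as individual. Exon lengths came from GENCODE release 21 for mouse on GRCm38 (3579 of the 3608 genes matched, 81 by an older name), and promoters from RefSeq. Of 560 named genes with an annotation entry, 7 share over 20% of exon bases with another gene on the same strand. Il2rg (30.5%), Fdps (26.7%) and Ifng (25.9%) are among them. For 15 the share is over 20% on the opposite strand (Cd247 56.4%, Jund 52.6%, Il12rb2 40.0% and Tnfrsf18 27.2% among them). The levels of all these genes are uncertain. For an overlap on the opposite strand this applies less if reads were counted by strand.

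The members and lists were chosen with earlier results of these data known. Genes named are the sorting and regulatory markers, the 20 highest by CPM and up to 8 most abundant members of each list. Each list adds up to 4 genes below 1 CPM in all mice. It also adds up to 4 above 50 CPM in 1 mouse and below 1 CPM in another. The 10 most and 10 least even genes are from those that passed the minimum with a mean of 100 CPM or higher. For each mouse, up to 4 genes below 1 CPM in the others are named. Some other list genes meet none of these rules and were named with their values known. Alternatives were other minimums, TMM (edgeR 4.0.16) and DESeq2 1.42.0 size factors in R 4.3.3, and leaving out each mouse. Scripts ran in Python 3.11.15 with pandas 2.3.3, and the spread and dispersion steps were tested on simulated data. The detection limit of 3 counts covers counting error only, since reads are not independent molecules. Some genes of the lists are not reported here by name.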

Additional observations from a re-analysis of the deposited data

How the results depend on the processing

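The number of genes at the minimum in all 3 mice stayed close to 3608 with TMM scaling (3607), with DESeq2 size factors (3608) and without mitochondrial genes, ribosomal protein genes and segments (3593); it was 4126 at 1 CPM, 3256 at 10 CPM and 4319 to 4451 with 1 mouse left out, where fewer mice have to pass. The median CV of 0.509 was 0.562 at a minimum of 1 CPM and 0.476 at 10 CPM. It was 0.426 for genes chosen by a mean of at least 100 CPM with no minimum, and 0.428 to 0.452 with 1 mouse left out. The number of genes whose highest mouse held less than 2 times the lowest was 1056, and 2236 to 2383 with 1 mouse left out, when the ratio spans 2 mice and more genes qualify. Among genes other than mitochondrial, ribosomal protein, segment and predicted ones, of the 20 highest per kb of exons 11 were also among the 20 highest by CPM without length, 18 by the median over mice and 18 to 20 with 1 mouse left out. Without replicate 2, 8 macrophage markers passed in place of 5. No paired analysis was possible because only 1 group was described, so that no replicate numbers are shared between groups. Depth limits values near 0.0723 to 0.0965 CPM, and 3 mice limit every SD.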

Other observations

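Few variable segments of the T cell receptor were counted. Of 163 alpha and beta variable segments in the table, 7 reached 5 CPM in a mouse, 3 in replicate 1, 1 in replicate 2 and 3 in replicate 3, and 0 of them did so in more than 1 mouse. Trav12-2 stood at 55.3, 0.0643 and 0.0559 CPM, Trav8-1 at 0, 91.4 and 0.0559 CPM and Trav6d-4 at 0.0482, 0.0643 and 65.0 CPM. Trbv19 was counted in replicate 3 only, at 16.5 CPM. At a minimum of 1 CPM, 12 segments were present and 1, Trbv13-2 at 28.7, 3.76 and 0 CPM, was shared between mice. Such values are common at these levels: of all genes whose highest mouse held 5 to 20, 20 to 50 or 50 to 100 CPM, 94.8%, 84.7% and 63.1% were below 1 CPM in another mouse.

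Genes present in a single mouse were found in each of the 3. Replicate 1 had 924 genes at 5 CPM or more that lay below 1 CPM in both other mice, replicate 2 had 894 and replicate 3 had 781, of which 56, 31 and 41 reached 100 CPM. The highest were Zdhhc2, a palmitoyltransferase, at 226, 0.0322 and 0.0279 CPM, Lrrk1, a kinase, at 0, 175 and 0.140 CPM, and Gse1 at 0.0482, 0.129 and 229.6 CPM. Med29, a subunit of the Mediator complex that transcription in all cells uses, stood at 188, 0 and 0.0559 CPM, and Ticam1, the Toll-like receptor adaptor TRIF, at 0, 173 and 0 CPM. Ribosomal protein genes were chosen by the form of their names, which does not leave out related copies. They passed in 71 of 89 cases, with a median CV of 0.486 and a median mean of 232 CPM. In no mouse did 8 of them reach 5 CPM. Whether those 8 are genes that every cell uses was not checked.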
